A study of Rattus norvegicus with 69 samples.

Results

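The genes described here are 32 genes of fatty acid oxidation, ketone body metabolism and the PPARα programme, followed in rat liver after Roux-en-Y gastric bypass (RYGB) and after treatment with gut hormone drugs. They were taken as a list of gene symbols, and each symbol was matched to the row of the count table with the same name. All 32 were found among 38513 genes in the table, and all 32 passed the filter on low counts that left 16676 genes for testing. The weakest of them, Acot1, had between 2.5 and 167 counts per library.

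Long-chain fatty acids enter mitochondria as carnitine esters and are then shortened by a repeating set of reactions, in which acyl-CoA dehydrogenases make a double bond, a hydratase adds water, a second dehydrogenase oxidises the alcohol and a thiolase releases acetyl-CoA. Very long and branched chains are first shortened in peroxisomes, and during fasting the liver turns much of the acetyl-CoA into ketone bodies. PPARα, a nuclear receptor that binds fatty acids, drives transcription of many of these genes in the fasted rodent liver, with the coactivator PGC-1α, encoded by Ppargc1a.

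The data were RNA sequencing of 69 livers of adult male Wistar rats. Groups were RYGB (Bypass in the labels, n = 14), BWM (n = 8), Lean (n = 6), sham surgery (n = 12), and treatment with liraglutide + PYY3-36 (PYY_Lira, n = 11), liraglutide (Lira, n = 5), PYY3-36 (PYY, n = 5) or saline (n = 8). Liraglutide is a long-acting agonist of the GLP-1 receptor and PYY3-36 is a satiety peptide of the gut. By the study's methods, rats were made obese on a high-fat diet, were operated on or treated, could then choose between a high-fat and a low-fat diet, and were fasted overnight before the liver was taken. What BWM and Lean rats ate or received is not given in the sources used here. According to the methods, a part of the liraglutide + PYY3-36 and saline rats had a longer feeding period, and the labels do not mark which. Their numbers equal those of the 6 liraglutide + PYY3-36 and 3 saline libraries of batch A, and whether these are the same rats is not given, so that a longer feeding period and batch A cannot be told apart in the values of this comparison within each batch. The labels number the samples within each group and give a batch, A or B, but do not describe the animals further, so p-values measure only the spread between these samples. The comparisons with sham share the 12 sham libraries and the drug comparisons share the 8 saline libraries.

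Libraries held 9110860 to 27559144 assigned counts (median 21027325). Batch A (41 libraries) held all BWM and Lean rats, 11 RYGB, 7 sham, 6 liraglutide + PYY3-36 and 3 saline rats, and batch B (28 libraries) held the remaining 3 RYGB, 5 sham, 5 liraglutide + PYY3-36 and 5 saline rats with all liraglutide and all PYY3-36 rats. In the fit on all libraries, levels differed between the batches in 60.6% of all genes tested and in 21 of the 32 genes. Of these 21, 10 were higher and 11 lower in batch B. Within batch B, 6 libraries lay apart from all others on the first principal component, with scores of 112 to 159 against at most 80.0. They were liraglutide + PYY3-36 libraries 8, 9 and 11, liraglutide library 4, PYY3-36 library 5 and sham library 12. Some results are also given without them, but not every result that moves. Hepatocyte markers were high in every group, the median of Alb (albumin) lying between 85118 and 115230 CPM, while adipocyte and exocrine pancreas markers were too low to be tested. In bulk liver, fewer cells of a type and less RNA per cell cannot be told apart.

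Levels are given as scaled CPM (counts of a gene relative to the library's total, with totals scaled between libraries by TMM). When divided by exon length, the most abundant of the 32 transcripts in sham livers were Scp2 (median 540 CPM per kilobase), Slc27a2 (518 CPM per kilobase), Acaa2 (453 CPM per kilobase), Etfb (349 CPM per kilobase) and Acadl (286 CPM per kilobase). Scp2 and Slc27a2 encode a peroxisomal thiolase with a lipid transfer domain and a very-long-chain acyl-CoA synthetase, Acaa2 encodes the mitochondrial thiolase, Etfb encodes a subunit of the electron transfer flavoprotein and Acadl encodes long-chain acyl-CoA dehydrogenase. The scarcest were Ppargc1a (0.428 CPM per kilobase), Acot1 (0.604 CPM per kilobase), Pex11a (6.40 CPM per kilobase), Pdk4 (7.07 CPM per kilobase) and Acot2 (7.30 CPM per kilobase), followed by Ppara itself (12.3 CPM per kilobase).

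RYGB was compared with sham surgery to ask what the operation changed in these obese rats, with all 69 libraries in the fit and batch as a term. Ppargc1a and Decr1 rose after RYGB and Bdh1 fell, so that 2 of 32 genes were called higher and 1 of 32 lower (adjusted p under 0.05, edgeR quasi-likelihood test). Over all genes tested, 3.12% were called, 1.54% higher and 1.58% lower. The 3 RYGB libraries of batch B had 0.593% to 1.502% of counts from the mitochondrial genome (at most 0.584% in the other 66), 9110860 to 13941960 counts, and summed hepatocyte markers of 65154 to 283410 CPM (85007 to 440860 CPM in the others). Within batch A, which holds none of them, 1 of the 32 genes was called higher (Ppargc1a) and 1 lower (Scp2). Of all 16552 genes tested in batch A alone, 435 were called higher and 496 lower. Of the 32 genes, 18 had a positive log2 difference, the median was 0.09 against -0.01 over all genes, and 8 had an unadjusted p under 0.05. In the same comparison, 1 of 10 Kupffer cell and macrophage markers was called higher, their summed level being 244 to 822 CPM in RYGB livers and 215 to 564 CPM in sham livers, none of the other marker lists had a called gene, and the part of these cells in the results was not tested.

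Among the 32 genes the largest log2 difference was that of the coactivator Ppargc1a (chromosome 14, 63095291 to 63190688, plus strand, Rnor_6.0). Its level was lowest at 3.08, median 7.05 and highest 19.4 CPM in RYGB livers, and lowest at 1.45, median 3.32 and highest 5.40 CPM in sham livers. The RYGB median thus lay above the highest sham library, although the ranges overlapped. The fitted log2 difference was 1.45 ± 0.295 (SE), with an adjusted p of 0.00106. Within batch A the log2 difference was 1.43 (adjusted p = 0.00223) and within batch B, with 3 RYGB libraries, it was 1.33 (adjusted p = 0.735). Leaving out any single RYGB or sham library gave 1.29 to 1.57 on the log2 scale. The promoter of Ppargc1a is shown because cAMP signalling is known to drive this gene in fasted liver through a cAMP response element. The RefSeq window runs from 250 bases before to 50 bases after the gene start on GRCr8, at chr14:63634058-63634357 on the plus strand, with the match to TGACGTCA in capitals, beginning 181 bases before the start.
Ppargc1a: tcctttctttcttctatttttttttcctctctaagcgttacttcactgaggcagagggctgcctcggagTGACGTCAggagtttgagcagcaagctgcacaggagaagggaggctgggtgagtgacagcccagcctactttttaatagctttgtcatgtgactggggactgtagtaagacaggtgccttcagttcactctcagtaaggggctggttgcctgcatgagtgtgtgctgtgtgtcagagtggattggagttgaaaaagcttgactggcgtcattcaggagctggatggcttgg
RefSeq windows of 300 bases were matched for 29 of the 32 genes. The letters TGACGTCA, the same on both strands, stood in 2 of these 29 windows (Ppargc1a and Acadm) and in 1.83% of 33469 windows of the same length over all genes. The PPAR response element, searched on both strands as 2 copies of AGGTCA in the same direction with 1 base between them, was in 0 of the 29 windows and in 0.0538% of all windows, and the looser form with AGGNCA in place of each copy, which includes every match of the strict form, was in 0 of 29 and in 0.415%. These counts describe only the letters in these windows.

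Ppara, encoding the receptor, had 129, 193 and 263 CPM as lowest, median and highest value in RYGB livers and 60.3, 130 and 252 CPM in sham livers. The ranges overlapped almost fully at the upper end, but the highest sham value was that of the sham library among the 6 that lay apart. Sham livers of batch A reached at most 189 CPM, under the RYGB median. The lowest values were those of sham livers. The log2 difference was 0.40 ± 0.184 (SE) and missed the threshold with an adjusted p of 0.317. Without the 6 libraries that lay apart, it was 0.55 with an adjusted p of 0.0121, and limma-voom on all libraries gave 0.47 with an adjusted p of 0.014. Leaving out any single RYGB or sham library gave 0.33 to 0.56 by edgeR, with an adjusted p of 0.060 or more. Reads of Ppara were in part divided with other features, as its counts were not whole numbers in 53.6% of libraries.

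**Figure D1:**
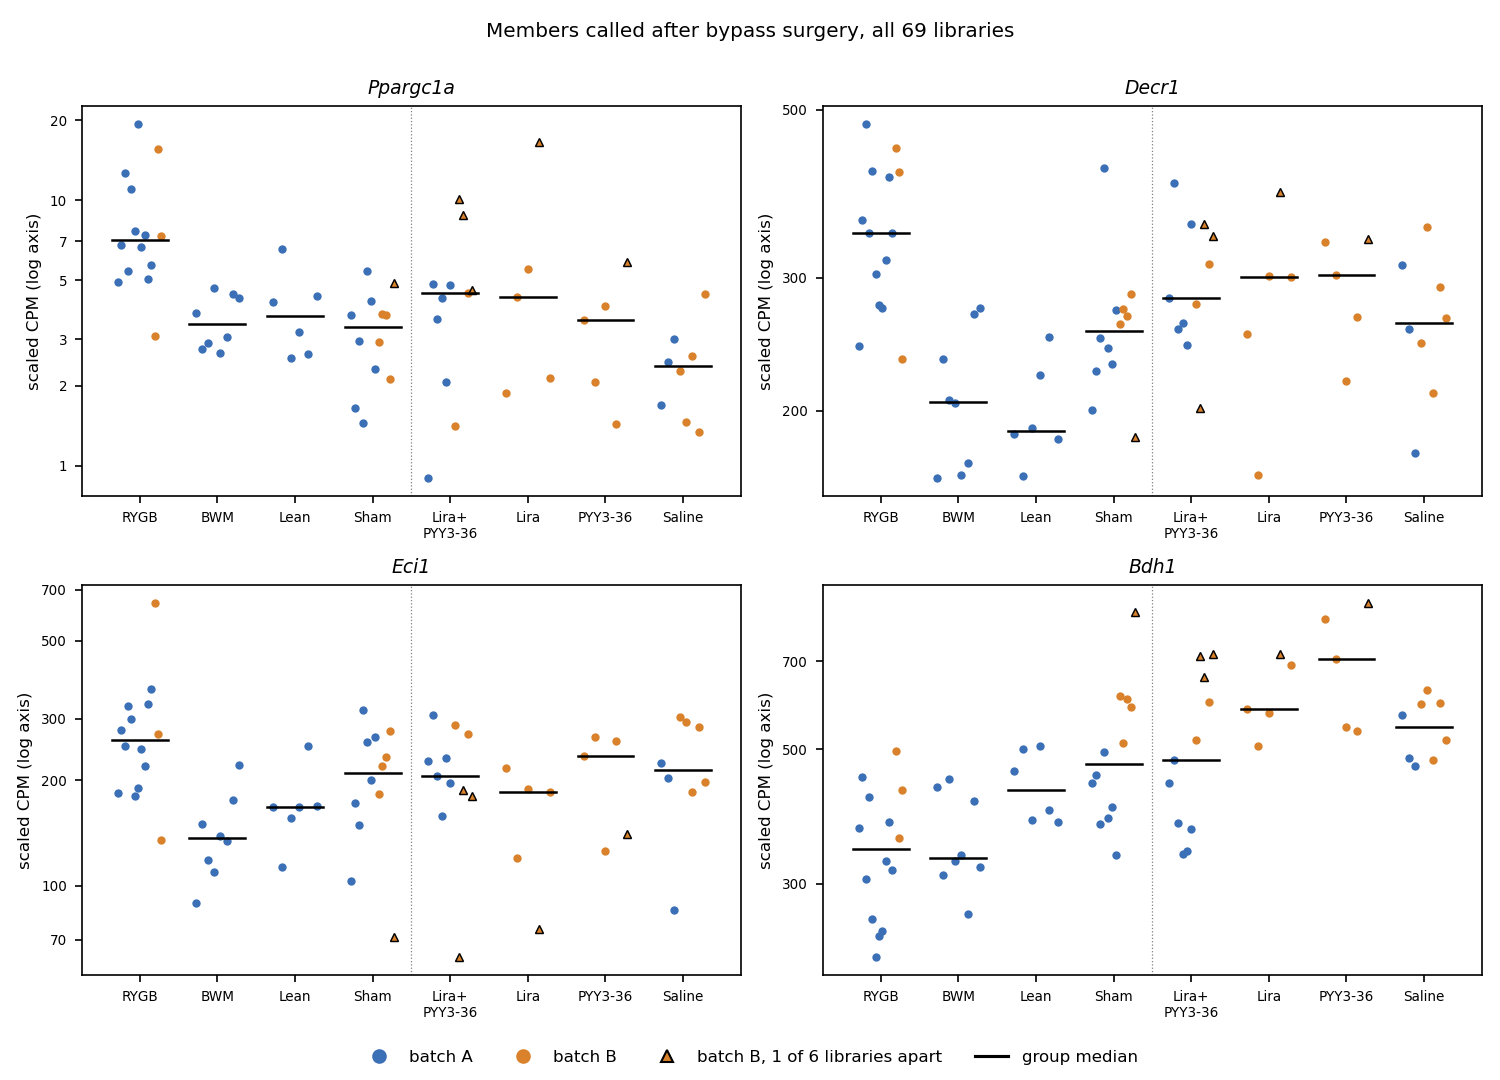
Scaled CPM (log axis) of Ppargc1a, Decr1, Eci1 and Bdh1 in each library of the 8 groups, coloured by batch, with triangles for the 6 libraries that lay apart and a black bar at the group median. The RYGB medians of Ppargc1a (7.05 CPM) and Decr1 (343 CPM) lie above those of sham (3.32 and 255 CPM), and that of Bdh1 (342 CPM) lies below (474 CPM).

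The auxiliary enzymes prepare unsaturated fatty acids for the spiral. Decr1, the mitochondrial dienoyl-CoA reductase, had a lowest level of 234, a median of 343 and a highest level of 479 CPM in RYGB livers, against 185, 255 and 418 CPM in sham livers. The 2 ranges overlapped over most of their width. Decr1 was higher by 0.43 ± 0.126 (SE) on the log2 scale, with an adjusted p of 0.0442. This call was close to the threshold. It was lost when any of 17 of the 26 RYGB and sham libraries was left out (RYGB libraries 2, 3, 4, 5, 10, 11, 12 and 13, and sham libraries 1, 2, 3, 5, 6, 7, 8, 10 and 12), the adjusted p running up to 0.113, and within batch A the log2 difference was 0.37 with an adjusted p of 0.135. Eci1, which shifts the double bond of unsaturated acyl-CoAs in mitochondria, had 135, 261 and 641 CPM as lowest, median and highest level in RYGB livers and 71.4, 210 and 318 CPM in sham livers. Its log2 difference of 0.47 did not pass the test (adjusted p = 0.288). Eci2, a related isomerase also found in peroxisomes, had a log2 difference of -0.12 (adjusted p = 0.703), from counts that were not whole in 95.7% of libraries.

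Bdh1 encodes the mitochondrial enzyme that interconverts acetoacetate and β-hydroxybutyrate, the main circulating ketone body. In RYGB livers its level was lowest at 227, median 342 and highest 498 CPM, and in sham livers lowest at 334, median 474 and highest 845 CPM. The RYGB median was near the lowest sham value. Bdh1 fell by 0.42 on the log2 scale (SE 0.106, adjusted p = 0.0113), and this value was -0.36 within batch A (adjusted p = 0.0702), -0.56 within batch B (adjusted p = 0.547) and -0.47 to -0.38 when any single library was left out. The 5 sham livers of batch B had 512 to 845 CPM and those of batch A 334 to 495 CPM, so that level and batch also went together within the sham group. The other gene of acetoacetyl-CoA metabolism, Acat1, which encodes the mitochondrial acetoacetyl-CoA thiolase, had a log2 difference of -0.11 (adjusted p = 0.939). The promoter windows of Bdh1 (chr11:82842587-82842886, minus strand, GRCr8) and Eci1 (chr10:13961000-13961299, plus strand, GRCr8) are given because both genes were called in the comparisons described here, and neither holds a match to the motifs searched, so that no letter is in capitals.
Bdh1: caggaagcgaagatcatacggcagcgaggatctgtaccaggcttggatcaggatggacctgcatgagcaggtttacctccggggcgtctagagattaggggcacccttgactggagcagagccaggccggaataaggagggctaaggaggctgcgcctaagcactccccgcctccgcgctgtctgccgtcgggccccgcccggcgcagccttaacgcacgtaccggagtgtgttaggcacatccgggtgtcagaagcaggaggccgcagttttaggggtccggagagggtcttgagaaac
Eci1: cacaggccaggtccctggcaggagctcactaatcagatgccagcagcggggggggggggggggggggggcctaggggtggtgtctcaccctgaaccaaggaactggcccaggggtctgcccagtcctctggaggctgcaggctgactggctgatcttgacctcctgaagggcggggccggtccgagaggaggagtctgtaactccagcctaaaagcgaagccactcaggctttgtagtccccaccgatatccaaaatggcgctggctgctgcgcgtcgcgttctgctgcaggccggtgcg

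The carnitine shuttle did not pass the test in any of its 3 genes. Cpt1a, the outer-membrane carnitine palmitoyltransferase that controls fatty acid entry, had 124, 273 and 434 CPM as lowest, median and highest level in RYGB livers and 120, 264 and 472 CPM in sham livers, a log2 difference of -0.06 (adjusted p = 0.946). The groups overlapped throughout. Cpt2, its inner-membrane partner, had a log2 difference of -0.02 and Slc25a20, the acylcarnitine carrier, had one of 0.10. The 95% interval of the Ppara difference ran from 0.03 to 0.77, and that of Cpt1a from -0.43 to 0.30.

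Among the 4 acyl-CoA dehydrogenases (Acadl, Acadm, Acads and Acadvl, for long, medium, short and very long chains), log2 differences between RYGB and sham lay from -0.13 for Acadm to 0.13 for Acadvl. Of the later steps, Hadhb and Hadha, the β and α subunits of the trifunctional protein, had log2 differences of 0.31 (adjusted p = 0.587) and 0.21 (adjusted p = 0.553), while Echs1, the short-chain hydratase, Hadh, the hydroxyacyl-CoA dehydrogenase, and Acaa2 had values of -0.25, -0.19 and -0.12. Electron transfer from the dehydrogenases to the respiratory chain runs through Etfa, Etfb and Etfdh, whose log2 differences were -0.28, 0.19 and -0.13. None of these genes passed the test. Without the 6 libraries that lay apart, Hadhb and Acadvl were called higher in RYGB livers, together with Slc27a2, Decr1, Ppara and Ppargc1a. Of these libraries only sham library 12 was of the groups compared here, the others being of drug-treated rats. Leaving out sham library 12 alone added no call and ended that of Decr1 (adjusted p = 0.078). In that fit 462 of all 16770 genes tested were called higher and 462 lower.

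Peroxisomal genes were 7 of the 32. Scp2 had 865, 1055 and 1212 CPM as lowest, median and highest level in RYGB livers and 1080, 1388 and 2332 CPM in sham livers. The highest RYGB value was under the sham median. Its log2 difference of -0.36 ± 0.115 (SE) missed the threshold with an adjusted p of 0.0674, and it passed within batch A (-0.36, adjusted p = 0.0152) and without the 6 libraries that lay apart (adjusted p = 0.0136), RYGB library 2 (adjusted p = 0.0492) or sham library 11 (adjusted p = 0.0438). Slc27a2, Abcd3 (a fatty acyl-CoA transporter of the peroxisomal membrane), Hsd17b4 (the D-bifunctional protein), Ehhadh (the L-bifunctional protein), Hacl1 (the lyase of α-oxidation) and Pex11a (a factor of peroxisome division) had log2 differences of 0.07 to 0.32, and none passed the test.

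The acyl-CoA thioesterases Acot1 (cytosolic) and Acot2 (mitochondrial), which release free fatty acids from CoA, had log2 differences of 0.77 (adjusted p = 0.239) and 0.55 (adjusted p = 0.172). They are similar in sequence and neighbours on chromosome 6, and their counts were not whole numbers in 85.5% and 98.6% of libraries, so that reads may be split between them and the separate values are uncertain. Pdk4, the kinase that switches off pyruvate dehydrogenase when fat is burned, had 1.74, 9.61 and 17.3 CPM as lowest, median and highest level in RYGB livers and 3.06, 10.1 and 17.6 CPM in sham livers. Its log2 difference was -0.41 (adjusted p = 0.675) and the ranges overlapped.

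**Figure D2:**
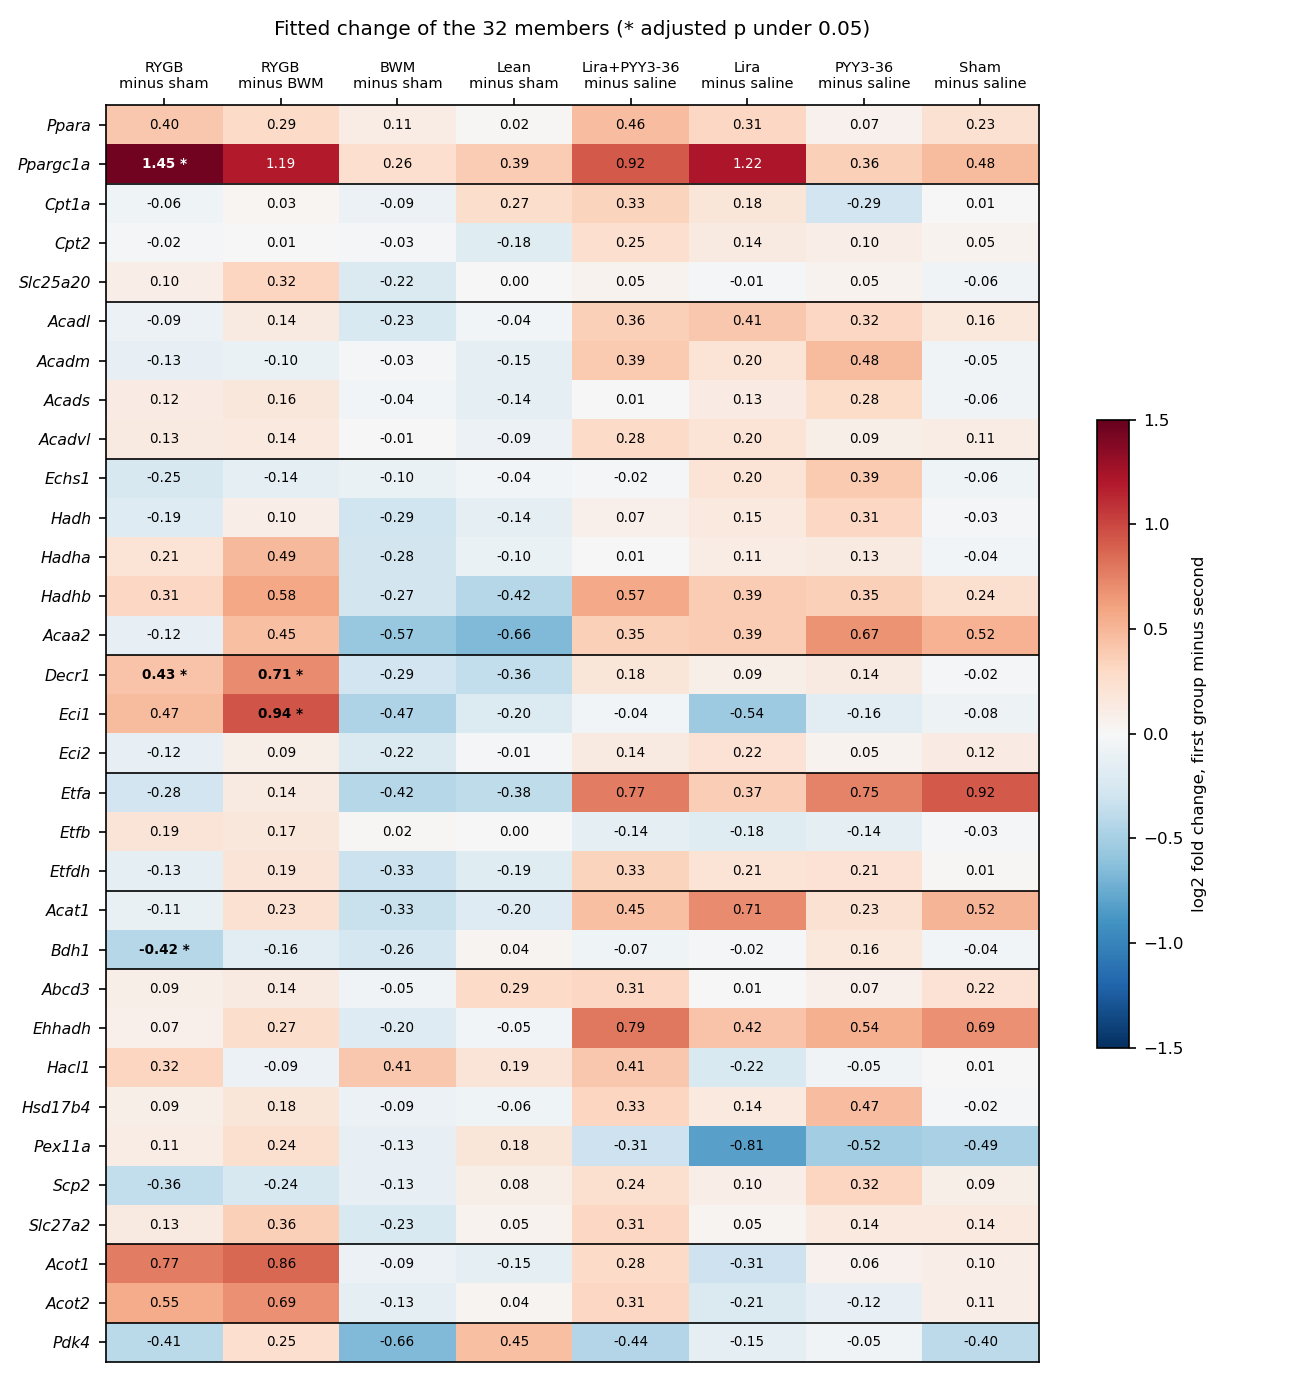
Fitted log2 differences (colour) of the 32 genes, ordered by role, in the 8 pairwise comparisons, each taken as the group named first minus the other, with an asterisk where the adjusted p was under 0.05. The 5 asterisks are Ppargc1a, Decr1 and Bdh1 in RYGB against sham and Decr1 and Eci1 in RYGB against BWM.

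RYGB was also set against the BWM group. Decr1 and Eci1 rose, so that 2 of 32 genes were called higher and 0 lower, with 1.27% of all genes called in this comparison, 0.768% higher and 0.504% lower. Log2 differences were positive for 27 of the 32 genes, with a median of 0.19 against 0.00 over all genes, and 9 genes had an unadjusted p under 0.05. Decr1 had 234, 343 and 479 CPM as lowest, median and highest level in RYGB livers and 163, 206 and 273 CPM in BWM livers. Of the 14 RYGB libraries, 2 (libraries 1 and 14) lay within the BWM range. The log2 difference of Decr1 was 0.71 ± 0.145 (SE), with an adjusted p of 0.00236. Eci1 had 135, 261 and 641 CPM in RYGB livers, against 89.3, 137 and 221 CPM in BWM livers, and its RYGB median lay above the highest BWM value. The log2 difference of Eci1 was 0.94 ± 0.245 (SE, adjusted p = 0.0287). Leaving out BWM library 1, 2, 3, 4, 5 or 6 or RYGB library 12 ended this call, the adjusted p reaching up to 0.0995.

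Ppargc1a had 2.65, 3.42 and 4.69 CPM as lowest, median and highest level in BWM livers, close to those of sham, and its log2 difference between RYGB and BWM was 1.19 with an adjusted p of 0.0518. It passed the test when RYGB library 1, 4, 10, 11, 12 or 14 was left out (adjusted p of 0.0311 to 0.0493), as did Hadha without RYGB library 14 (adjusted p = 0.0429). All BWM libraries were of batch A. Within batch A, where 11 RYGB and 8 BWM libraries remained and 357 of all 16552 genes tested were called higher and 229 lower, 8 of the 32 genes were called higher in RYGB livers and 0 lower, namely Slc27a2, Decr1, Hadhb, Hadha, Acat1, Slc25a20, Eci1 and Ppargc1a (the last with an adjusted p of 0.0062). Hadha and Hadhb, with log2 differences over all libraries of 0.49 (adjusted p = 0.0903) and 0.58 (adjusted p = 0.326), had 0.48 (adjusted p = 0.000903) and 0.67 (adjusted p = 0.00173) within batch A. These subunits are encoded side by side on opposite strands. On GRCr8 their starts are 301 bases apart, and their promoter windows (chr6:31907551-31907850 on the plus strand for Hadha and chr6:31907451-31907750 on the minus strand for Hadhb) share 200 bases, which are in capitals in the window of Hadha.
Hadha: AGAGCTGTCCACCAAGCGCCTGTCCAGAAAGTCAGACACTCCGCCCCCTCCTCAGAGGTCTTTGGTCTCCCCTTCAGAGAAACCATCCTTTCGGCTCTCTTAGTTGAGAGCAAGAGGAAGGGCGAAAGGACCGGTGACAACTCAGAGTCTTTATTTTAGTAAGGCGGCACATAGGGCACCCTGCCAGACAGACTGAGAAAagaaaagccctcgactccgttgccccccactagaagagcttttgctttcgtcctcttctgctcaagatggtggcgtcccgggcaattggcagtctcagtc

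BWM livers were compared with sham livers, and 0 of the 32 genes passed the test by edgeR, DESeq2 or limma-voom, with 0.042% of all genes called. With edgeR 3 genes had an unadjusted p under 0.05, namely Bdh1 (log2 difference -0.26), Hadh (-0.29) and Slc25a20 (-0.22), each with an adjusted p of 0.99985. Log2 differences were positive for 4 of 32 genes, with a median of -0.16 against -0.02 over all genes. Bdh1 had 267, 330 and 446 CPM as lowest, median and highest level in BWM livers, and these lay close to the RYGB values.

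Lean livers were likewise compared with sham livers, with 0.612% of all genes called and 0 of the 32 genes called by edgeR, DESeq2 or limma-voom. With edgeR 2 genes had an unadjusted p under 0.05. Decr1 had 164, 188 and 251 CPM as lowest, median and highest level in Lean livers (log2 difference from sham -0.36, adjusted p = 0.721), and Acaa2 had 271, 478 and 1345 CPM in Lean livers (log2 difference -0.66, adjusted p = 0.801). The third of lowest p, Abcd3, had 211, 252 and 270 CPM in Lean livers and 157, 188 and 317 CPM in sham livers. Log2 differences were positive for 13 of the 32 genes, with a median of -0.04 against 0.00 over all genes. All Lean libraries were of batch A, and the ranges overlapped for each of these genes.

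The drug comparisons asked what liraglutide, PYY3-36 and their combination changed relative to saline. In liraglutide + PYY3-36 livers 0 of the 32 genes passed the test by edgeR, DESeq2 or limma-voom, and 0.006% of all genes were called. By edgeR 26 of 32 genes had positive log2 differences, with a median of 0.29 against 0.00 over all genes, and 5 had an unadjusted p under 0.05 (Ppargc1a, Hadhb, Abcd3, Ehhadh and Ppara). The median was 0.03 within batch A and 0.48 within batch B, where 3 of the 5 liraglutide + PYY3-36 libraries lay apart. Without the 6 libraries that lay apart, the median was 0.00 and 16 of the 32 differences were positive, with 0 genes at an unadjusted p under 0.05.

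Ppargc1a had 0.896, 4.48 and 10.1 CPM as lowest, median and highest level in liraglutide + PYY3-36 livers and 1.34, 2.36 and 4.42 CPM in saline livers, with the saline range inside that of the combination. The log2 difference was 0.92 ± 0.347 (SE), with an adjusted p of 0.454. Hadhb had 81.5, 150 and 207 CPM in liraglutide + PYY3-36 livers and 52.8, 74.4 and 165 CPM in saline livers, a log2 difference of 0.57 (adjusted p = 0.454). For Hadhb, the combination median lay in the upper part of the saline range. Abcd3 had 156, 209 and 317 CPM in liraglutide + PYY3-36 livers and 160, 174 and 215 CPM in saline livers, a log2 difference of 0.31 (adjusted p = 0.454). Ppara had 100.02, 146 and 229 CPM in the combination group and 49.0, 99.9 and 201 CPM in saline livers (log2 difference 0.46, adjusted p = 0.454), but -0.03 within batch A. Cpt1a had a log2 difference of 0.33, which was -0.46 within batch A and -0.053 without the 6 libraries that lay apart, and Pdk4 had one of -0.44, which was 0.54 within batch A. Over both batches together, Cpt1a and Pdk4 overlapped between the groups. Within each batch, the Cpt1a ranges did not overlap, and the direction differed between the batches. In batch A Cpt1a had 182 to 345 CPM in combination livers and 346 to 384 CPM in saline livers. In batch B it had 255 to 568 CPM in combination livers and 143 to 253 CPM in saline livers.

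In the 5 liraglutide livers, Ppargc1a had 1.89, 4.32, 5.50, 16.6 and 2.13 CPM, against 1.34, 2.36 and 4.42 CPM as lowest, median and highest level in saline livers. The high value was that of liraglutide library 4, which lay apart. The log2 difference was 1.22 with an adjusted p of 0.565, and leaving out single libraries gave 0.39 to 1.45. Pex11a had 43.4, 23.2, 25.6, 10.6 and 25.3 CPM in liraglutide livers (log2 difference from saline -0.81, adjusted p = 0.756), again with library 4 at the extreme. Acat1 had 172, 116, 205, 1235 and 346 CPM, with library 4 highest, and its log2 difference from saline was 0.71, or -0.30 without library 4. With 0 of 32 genes called by edgeR, DESeq2 or limma-voom and 0.006% of all genes called, 2 genes had an unadjusted p under 0.05 by edgeR, 23 of 32 differences were positive, and the median log2 difference was 0.14 with all libraries and 0.00 without those that lay apart.

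In the 5 PYY3-36 livers, 0 of the 32 genes were called by edgeR, DESeq2 or limma-voom, with 0% of all genes called by edgeR. The gene of lowest p and the 1 gene under an unadjusted p of 0.05, Hsd17b4, had 525, 436, 404, 415 and 1183 CPM in PYY3-36 livers, and a log2 difference from saline of 0.47 (adjusted p = 0.947), which was 0.05 when library 5 was left out. Library 5 was among those that lay apart. Acaa2 had 1359, 637, 385, 580 and 1365 CPM and Scp2 had 2053, 1910, 1357, 1556 and 3011 CPM in these livers, with library 5 highest for both. Of the 32 differences 25 were positive, with a median of 0.14 against 0.04 over all genes, and 0.03 without the libraries that lay apart. All liraglutide and PYY3-36 libraries were of batch B.

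**Figure D3:**
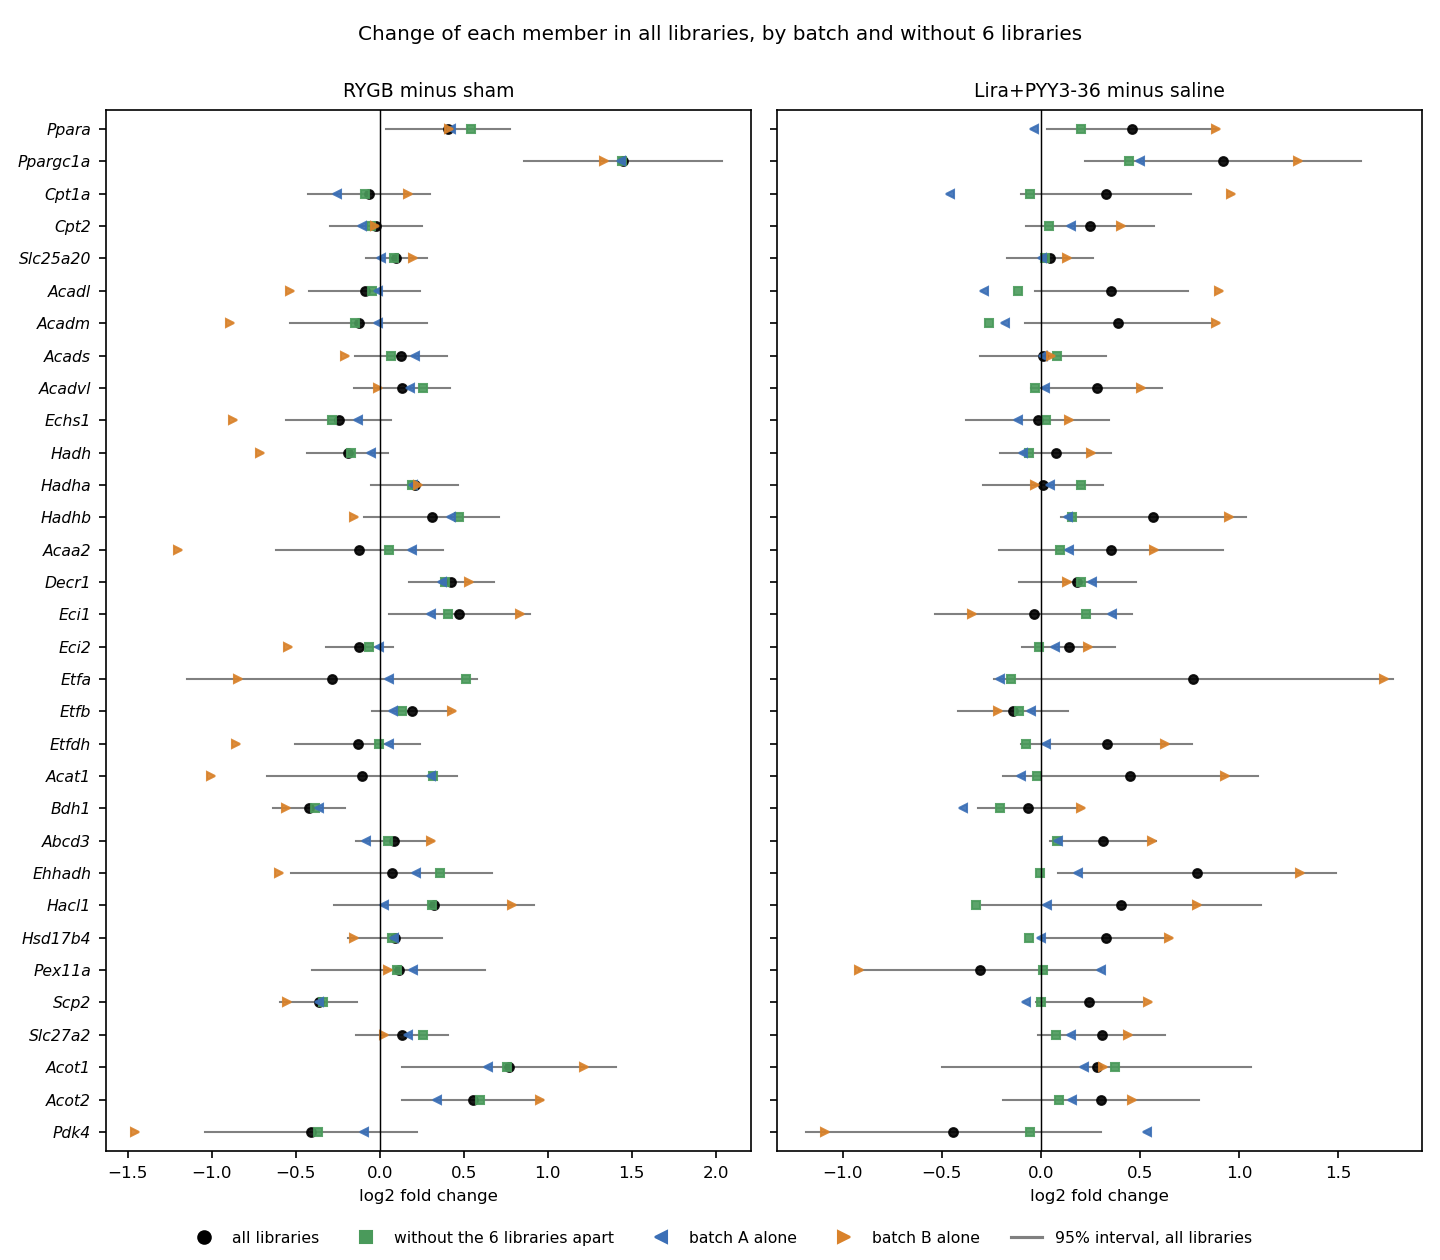
Log2 differences of the 32 genes for RYGB minus sham and for liraglutide + PYY3-36 minus saline, fitted on all libraries (with 95% intervals in grey), without the 6 libraries that lay apart, and within batch A and batch B. For RYGB, Ppargc1a stays between 1.33 and 1.45 in the fits on all libraries and within each batch, while for the combination the medians over the 32 genes are 0.03 in batch A and 0.48 in batch B.

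A test of whether the effect of RYGB against sham differed from that of liraglutide + PYY3-36 against saline gave 0 of 32 genes by edgeR, DESeq2 or limma-voom, with 0.036% of all genes called, 0.024% higher and 0.012% lower. By edgeR 2 genes had an unadjusted p under 0.05. The RYGB effect on Scp2 was lower than that of the combination by a log2 difference of -0.61 (adjusted p = 0.229), and that on Bdh1 by -0.35 (adjusted p = 0.396). Of the 32 differences 11 were positive, with a median of -0.23, whereas 20 were positive with a median of 0.10 without the libraries that lay apart. Sham livers set against saline livers, the controls of the operated and the drug-treated rats, also gave 0 of 32 genes called by edgeR, DESeq2 or limma-voom and 0% of all genes by edgeR, with 0 of the 32 at an unadjusted p under 0.05 and a median of 0.03.

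The 6 libraries that lay apart came from 4 groups. Their summed levels of 8 stellate cell markers, none at 0 in any library, were 249 to 718 CPM (61.1 to 299 CPM in the other 63 libraries), those of T and NK cell markers 5.76 to 8.69 CPM (1.30 to 10.3 CPM in the others), and their TMM factors 0.624 to 0.846 (0.807 to 1.24 in the others). The part of these signs in the levels below was not tested. Etfa, the α subunit of the electron transfer flavoprotein, had 960 to 5424 CPM in these 6 libraries and at most 1761 CPM in the other libraries of batch B, while batch A held 183 to 302 CPM. Acadl (942 to 1170 CPM, others of batch B at most 847 CPM), Acadvl (555 to 898 CPM, others at most 517 CPM), Etfdh, the reductase that passes the electrons to ubiquinone (261 to 382 CPM, others at most 228 CPM), and Slc27a2 (2573 to 4091 CPM, others at most 2288 CPM) did not overlap with any other library. These were 4 of the 32 genes, and since the libraries were picked on a component of all genes, 9.77% of all genes tested likewise did not overlap, 4.88% with higher levels in the 6. Pdk4 was at 2.04 to 3.06 CPM in the 6 libraries and at 1.74 to 16.9 CPM in the rest of batch B, so that it overlapped. Summed over the 32 genes, batch A libraries held 8068 to 11741 CPM and batch B libraries 7480 to 23239 CPM. The genes that moved most between the batches in the fit were Etfa (log2 difference of B from A 1.81), Pex11a (1.27), Acot2 (1.23), Etfb (1.05), Acot1 (-1.33), Pdk4 (-1.25) and Echs1 (-1.17). This fit held the 6 libraries. The median of Etfa was 2257 CPM in them, 243 CPM in the rest of batch B and 231 CPM in batch A. The part of these libraries in the drug comparisons was not tested beyond the values given without them.

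**Figure D4:**
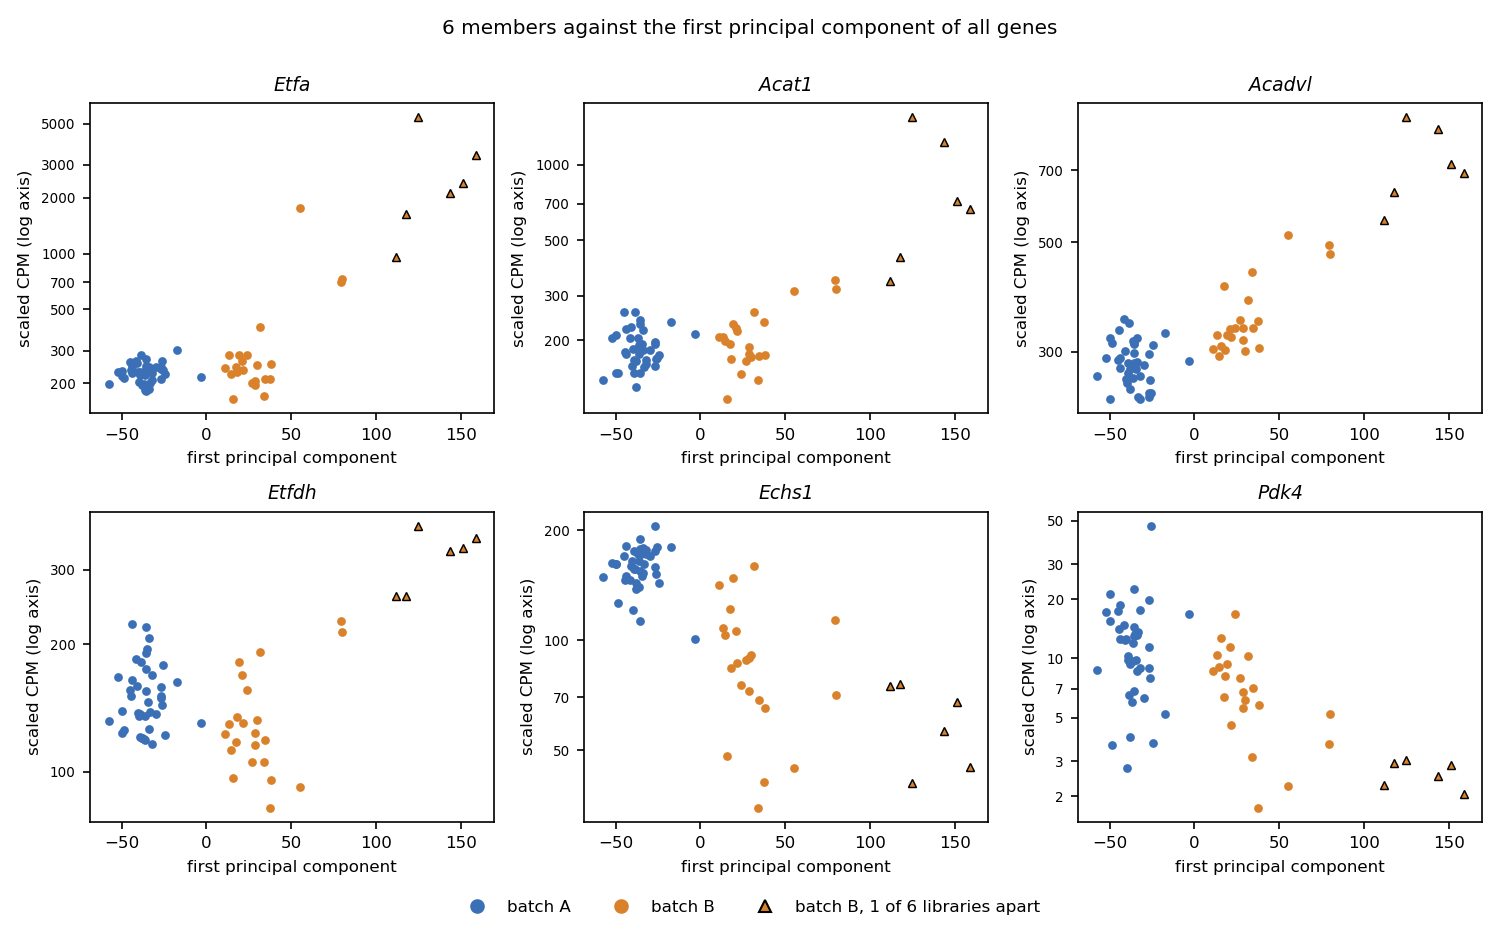
Scaled CPM (log axis) of Etfa, Acat1, Acadvl, Etfdh, Echs1 and Pdk4 against the score of each library on the first principal component of all genes, by batch, with the 6 libraries that lay apart as triangles. Those 6 hold 960 to 5424 CPM of Etfa and 2.04 to 3.06 CPM of Pdk4.

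A wider list of 107 other gene symbols of the pathway (ketogenesis, peroxisomal and mitochondrial oxidation, other PPARα targets and regulators) held 103 that could be tested. The symbols included alternative names of the same gene. It was drawn up with earlier results of these data known, so that counts from it describe the list and do not test the pathway. After RYGB 9 of these 103 rose against sham and 0 fell, with 62 positive differences, a median log2 difference of 0.06 and 25 at an unadjusted p under 0.05. Over all genes 1.54% were called higher and 1.58% lower, 49.1% of differences were positive and 12.7% had an unadjusted p under 0.05. Vnn1, a pantetheinase and a known PPARα target in rodent liver, had 39.7, 64.5 and 95.2 CPM as lowest, median and highest level in RYGB livers and 6.57, 14.4 and 40.5 CPM in sham livers. The groups overlapped only at the edge. Its log2 difference was 2.12 ± 0.320 (SE), with an adjusted p of 8.76e-06. The ω-hydroxylases Cyp4a1 (log2 difference 1.21, adjusted p = 0.00954), Cyp4a2 (1.64, adjusted p = 0.0112) and Cyp4a3 (0.74, adjusted p = 0.00383) rose as well. Cyp4a2 and Cyp4a3 are near-identical paralogs, and their counts were not whole numbers in 78.3% and 73.9% of libraries, so that their separate values are uncertain, while those of Cyp4a1 were not whole in 1.45%.

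Crat, carnitine acetyltransferase (log2 difference 1.15, adjusted p = 0.0194), and Slc22a5, the plasma membrane carnitine transporter (0.68, adjusted p = 0.0114), both rose, whereas Cpt1a, Cpt2 and Slc25a20 of the carnitine shuttle had not passed the test (-0.06, -0.02 and 0.10). Crat and the next pair, Decr2 and Acaa1b, were named after their values were seen and were not refitted without single libraries. The call of Slc22a5 was lost without RYGB library 12 (adjusted p = 0.0602). Decr2, the peroxisomal counterpart of Decr1 (0.42, adjusted p = 0.0228), and Acaa1b, a peroxisomal thiolase (0.58, adjusted p = 0.0305), rose too. Lpin1, which encodes a phosphatidate phosphatase that also coactivates PPARα with PGC-1α in mouse liver, had 34.2, 68.7 and 584 CPM as lowest, median and highest level in RYGB livers and 23.8, 43.9 and 72.7 CPM in sham livers. Its log2 difference was 1.27 (adjusted p = 0.00493), or 0.78 (adjusted p = 0.0458) without RYGB library 7, the highest.

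Fgf21, a fasting hormone and PPARα target, did not pass the test in the same comparison. It had 1.95, 6.61 and 32.9 CPM as lowest, median and highest level in RYGB livers and 1.31, 7.58 and 65.3 CPM in sham livers, and the ranges overlapped throughout. Its log2 difference was -0.01 (adjusted p = 0.998), and ran from -0.20 to 0.47 when single libraries were left out.

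Against BWM, 6 of the 103 other pathway genes rose in RYGB livers and 0 fell (over all genes 0.768% higher and 0.504% lower), with log2 differences of 2.31 for Vnn1, 2.75 for Cyp4a2, 1.67 for Cyp4a1, 0.89 for Cyp4a3, 0.59 for Decr2 and 0.72 for Slc22a5. The call of Slc22a5 (adjusted p = 0.0421) was lost when any of 14 libraries was left out (BWM 1, 2, 3, 4, 5, 6 or 7, or RYGB 3, 4, 5, 6, 11, 12 or 13). Vnn1 was at 4.92, 10.6 and 26.1 CPM as lowest, median and highest level in BWM livers, all under the lowest RYGB value. Of Lean against sham, Acacb, the acetyl-CoA carboxylase whose product inhibits Cpt1a, was the 1 gene of the 103 that rose (log2 difference 1.76, adjusted p = 0.0194). Over all genes in this comparison, 0.48% were called higher and 0.132% lower. The call of Acacb was lost without Lean library 1 (adjusted p = 0.150) or 2 (adjusted p = 0.056). In liraglutide + PYY3-36 against saline 0 of the 103 genes were called (0.006% of all genes). An unadjusted p under 0.05 was found for 19, or 18.4%, against 10.9% of all genes. Vnn1 had a log2 difference of 0.89 (adjusted p = 0.454). These values include the 6 libraries that lay apart. Without them, 872 of all 16770 genes tested had an unadjusted p under 0.05, against 1820 of 16676 with them. The 103 genes were not counted without them.

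**Figure D5:**
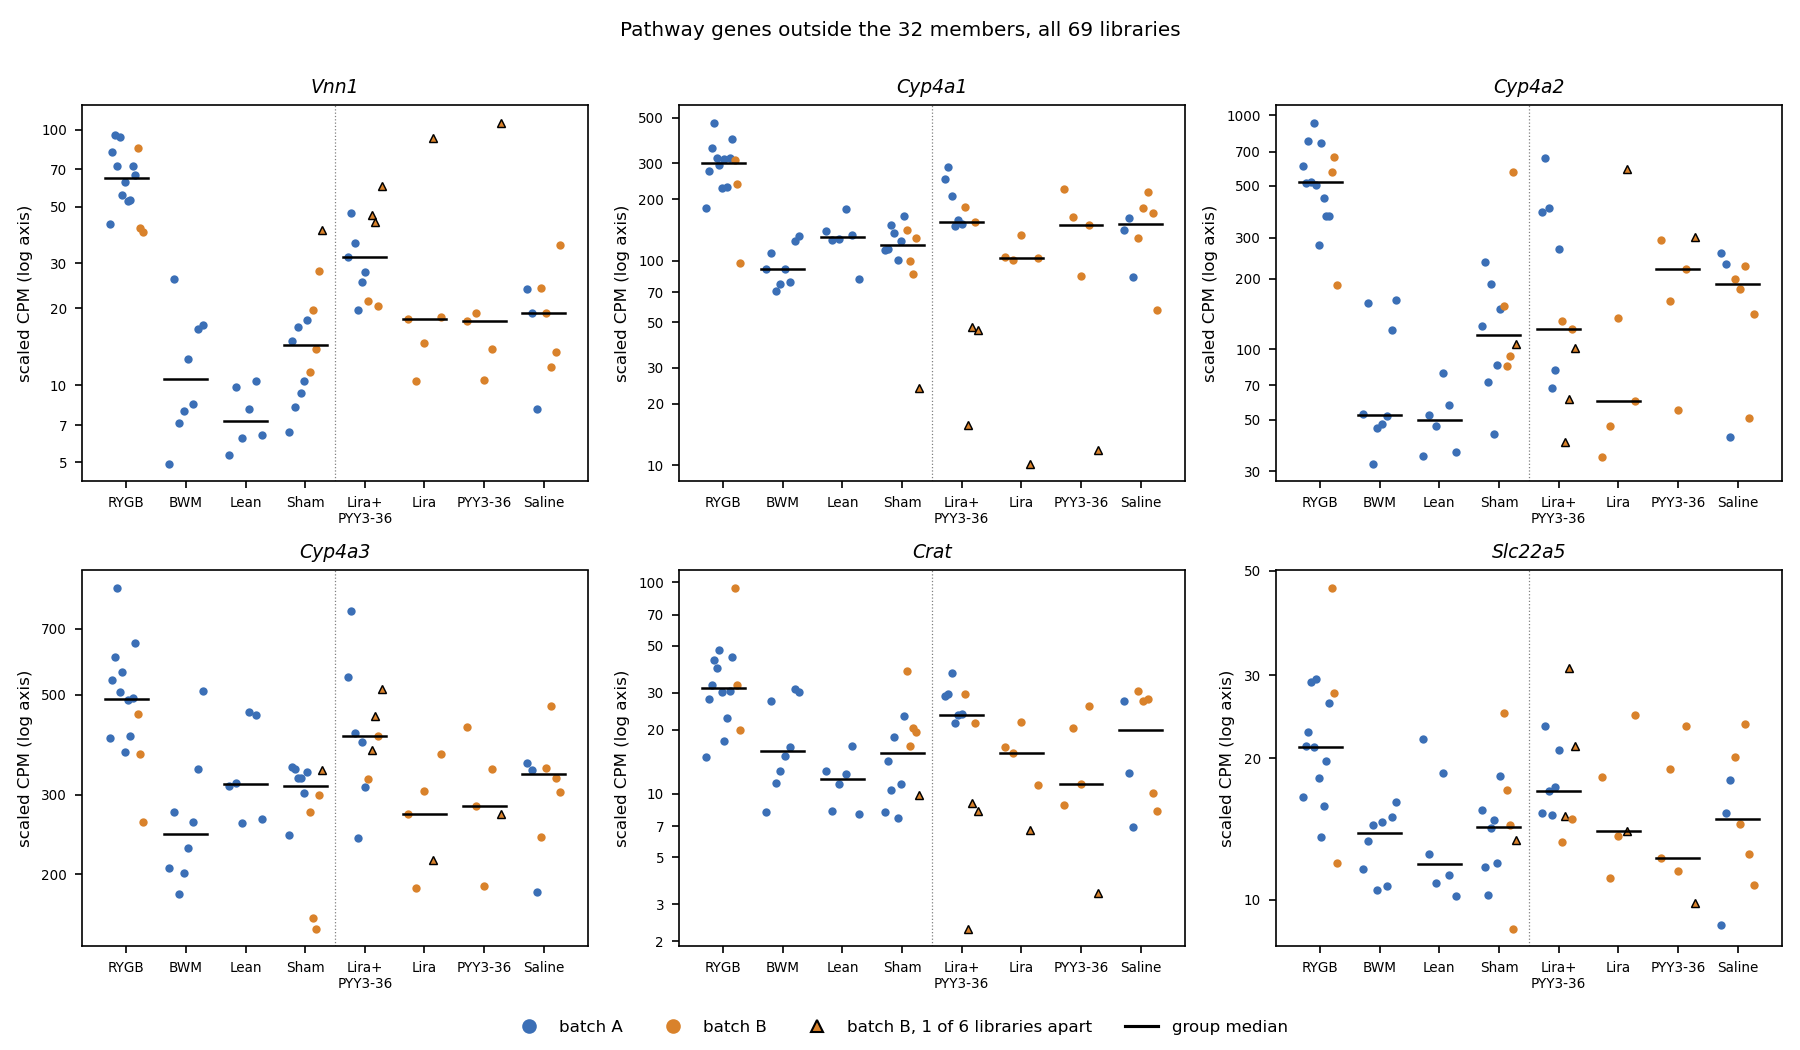
Scaled CPM (log axis) of Vnn1, Cyp4a1, Cyp4a2, Cyp4a3, Crat and Slc22a5 in each library of the 8 groups, coloured by batch, with triangles for the 6 libraries that lay apart and a black bar at the group median. RYGB livers hold 39.7 to 95.2 CPM of Vnn1 against 6.57 to 40.5 CPM in sham livers, and the Slc22a5 medians of these groups are 21.2 and 14.3 CPM.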

How the data were processed

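Liver RNA of 69 rats was sequenced from stranded poly(A) libraries. The authors deposited estimated counts per gene: reads were trimmed with cutadapt 2.5, aligned to Rnor_6.0 with STAR 2.7.2b and counted by strand with featureCounts 1.6.4 on RefSeq genes. Reads matching several places or genes were divided, so that 15.9% of the deposited estimated counts were not whole. They were rounded here. The deposited exon length, a column of other values, served only for levels per kilobase.

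Groups and batch came from the labels. Counts were scaled by TMM, filtered with filterByExpr and tested with edgeR 4.0.16 (quasi-likelihood, group and batch, all 69 libraries, Benjamini-Hochberg over 16676 genes) in R 4.3.3, after tests on simulated counts. Named were the called genes among the 32 (up to 12 of lowest p) or otherwise the 3 of lowest p, with Ppara, Cpt1a and Pdk4, and up to 6 other called pathway genes with Fgf21 in the main comparison. Some genes that the rule also named are not reported here. Others were described after their values were seen. Alternatives were DESeq2 1.42.0, limma-voom (limma 3.58.1), other scaling, filter, rounding, batch or samples, a replicate block and leaving out libraries. The 32 genes and the lists were chosen with earlier results of these data known. Depth, 9110860 to 27559144 counts, limits the precision of scarce genes. Promoter windows came from RefSeq on GRCr8.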

Additional observations from a re-analysis of the deposited data

Results flagged for a closer look

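Among the 32 genes and the 5 groups of 4 to 10 libraries (160 sets of values), 11 held a highest or lowest library whose gap to its neighbour was wide for the group's range, and chance gives about 1 in 20. PYY3-36 library 5, which lay apart on the first principal component, held 3 of them. It had 3409 CPM of Etfa (next 400 CPM), 1183 CPM of Hsd17b4 (next 525 CPM) and 3939 CPM of Slc27a2 (next 1636 CPM), all highest in the group. Liraglutide library 2 was lowest for Slc25a20 (83.2 CPM, next 126 CPM) and Scp2 (1076 CPM, next 1711 CPM). Lean library 1 was lowest for Hadhb (65.2 CPM, next 109 CPM) and highest for Pex11a (33.0 CPM, next 12.9 CPM), and Lean library 6 was highest for Ppara (262 CPM, next 153 CPM). BWM library 5 was lowest for Acads (103 CPM, next 117 CPM), saline library 4 was lowest for Eci1 (85.3 CPM, next 185 CPM) and saline library 9 was highest for Etfa (730 CPM, next 286 CPM).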

How the results depend on the processing

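Of the counts of called genes among the 32, those of RYGB against sham and RYGB against BWM moved, while in the other 7 tests the count was 0 under all alternatives run. Higher in RYGB than in sham were 2 genes, or 8 with limma-voom, 1 with no filter on low counts, 1 with 6 groups only, 1 in batch A alone, 0 in batch B alone, 1 with the replicate block and 6 without the 6 libraries that lay apart, a choice made after seeing the data. Lower were 1 gene, or 2 with DESeq2, 2 with limma-voom, 2 with no batch term, 0 in batch B alone, 0 with the replicate block and 2 without those 6 libraries. Higher in RYGB than in BWM were 2 genes, or 4 with DESeq2, 9 with limma-voom, 1 with no filter, 3 with no batch term, 8 in batch A alone, 1 with the replicate block and 6 without those 6 libraries. Counts over all genes moved too: against 256 higher in RYGB than in sham, limma-voom gave 823, no filter 219, 6 groups only 206, batch A alone 435, batch B alone 14, the replicate block 208 and the fit without the 6 libraries 462. Against 264 lower in RYGB than in sham, DESeq2 gave 341, limma-voom 762, no batch term 297 and batch B alone 10. The replicate block gave 160 and the fit without the 6 libraries 462. Against 128 higher in RYGB than in BWM, DESeq2 gave 176, limma-voom 466, no filter 103 and no batch term 98. Batch A alone gave 357, the replicate block 98 and the fit without the 6 libraries 213. Among the 32 genes, leaving out single libraries gave 1 to 2 higher and 1 to 2 lower against sham and 1 to 4 higher against BWM.

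Among the genes named for each comparison, directions turned only for differences that were not called, and other genes of the 32 turned as well, 14 of 32 differences being positive in RYGB against sham in batch B alone (18 in all libraries) and 10 in BWM against sham with no batch term (4 with it). In RYGB against sham the named ones were, in batch B alone, Cpt1a (0.17) and Fgf21 (0.20), Fgf21 with the replicate block (0.31), and, over single omissions, Cpt1a (-0.12 to 0.010) and Fgf21 (-0.20 to 0.47). In liraglutide + PYY3-36 against saline they were Ppara in batch A (-0.034), Cpt1a with limma-voom (-0.054), in batch A (-0.46) and without the 6 libraries (-0.053), and Pdk4 with limma-voom (0.12), no batch term (0.073) and in batch A (0.54). Acat1 in liraglutide against saline turned with limma-voom (-0.020) and without the 6 libraries (-0.0092), and ran from -0.30 to 0.94 over single omissions. Etfa in sham against saline turned with limma-voom (-0.031), in batch A (-0.078), with the replicate block (-0.0052) and without the 6 libraries (-0.14), and Bdh1 in the difference of effects turned in batch A (0.032). The cause was not tested.

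Samples were not treated as paired by replicate number. Of 12 RYGB and sham pairs of the same number, 3 had correlated deviations over 0.1 (range -0.46 to 0.16) and 3 correlated best with their own number. Some of these pairs joined libraries of different batches, and other groups were not checked, so that pairing in the series cannot be told from these values. With the replicate block Bdh1 (-0.38, adjusted p = 0.0524) and Decr1 (0.45, adjusted p = 0.107) against sham and Eci1 (0.93, adjusted p = 0.0845) against BWM lost their calls.

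The uneven batches limit the data, with 3 RYGB libraries in batch B, BWM and Lean in batch A only and liraglutide and PYY3-36 in batch B only. Scarce transcripts such as Acot1 and divided reads add counting error to their own values.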
